A study of Mus musculus with 6 samples.

Results

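The interferon-inducible GTPases are enzymes that immune and other cells make in quantity after interferon reaches them. They were read here from 13 probe sets of 9 genes, Gbp2, Gbp3, Gbp6, Gbp7, Igtp, Irgm1, Irgm2, Iigp1 and Ifi47, out of 45037 probe sets on the array. Every probe set that the platform's annotation assigns to one of these symbols was taken, whatever its values, and none of the 13 carries a second symbol. The study asked how basal gene expression in bone marrow differs between mice of a pair of crosses. The tissue came from adult females of (AKR/J x FVB/NJ)F1, called AKR F1, and of (DBA/2J x FVB/NJ)F1, called DBA F1, with 3 arrays each. All animals thus carry an FVB/NJ genome beside the AKR/J or the DBA/2J one, the labels name no treatment other than Avertin anaesthesia before death, and the labels do not say whether each array is a separate animal. The p-values therefore measure the spread between these samples, which may be technical.

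The family has a pair of branches. Guanylate-binding proteins (GBPs) are large GTPases that assemble into coats on vacuoles and bacteria inside a cell and help to open them. Immunity-related GTPases (IRGs) fall into effectors, such as the products of Iigp1 and Ifi47, which load onto the vacuole of a parasite, and regulators, the products of Irgm1, Irgm2 and Igtp, which sit on the cell's own membranes and keep the effectors from acting there. In mice without Irgm1, blood stem cells of the marrow respond poorly to infection. Transcription is driven by STAT and IRF factors, which bind gamma-activated sites and interferon-stimulated response elements in the promoters.

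The promoters are shown because such elements are the feature that these genes are known to share. RefSeq promoter windows of assembly GRCm38.p6, 250 bases before to 50 bases after a start site, were held for 7 of the 9 genes in 8 entries (2 for Gbp3). The letters GAAANNGAAA, the core of the interferon-stimulated element read on both strands, occurred in 1 entry each of Gbp2, Gbp3, Gbp7, Igtp, Irgm1 and Irgm2, that is in 6 of 7 genes, against 3.44% of all 32851 windows of this length. They did not occur in the Ifi47 window, which says only that these letters are not in that stretch. Capitals mark the matches on either strand, which overlap each other in Gbp3 and Irgm1, and each stretch lies before the start site:
Gbp7, chr3:142530263-142530312, + strand: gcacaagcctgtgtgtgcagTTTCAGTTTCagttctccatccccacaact
Gbp3, chr3:142559979-142560034, + strand: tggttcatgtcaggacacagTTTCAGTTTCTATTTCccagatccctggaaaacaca
Gbp2, chr3:142620584-142620633, + strand: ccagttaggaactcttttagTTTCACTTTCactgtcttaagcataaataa
Irgm1, chr11:48871421-48871470, - strand: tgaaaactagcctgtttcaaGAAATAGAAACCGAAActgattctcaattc
Igtp, chr11:58199502-58199551, + strand: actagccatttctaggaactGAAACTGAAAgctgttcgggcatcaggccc
Irgm2, chr11:58214893-58214942, + strand: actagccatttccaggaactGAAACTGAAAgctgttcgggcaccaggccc
The first match began between 30 bases (Irgm1) and 64 bases (Irgm2) before the start. The windows of Igtp and Irgm2, which are neighbours on chromosome 11, share an identical run of 61 bases. The shorter letters TTCNNNGAA, the core of the gamma-activated site, occurred in the windows of Gbp7, Igtp and Irgm2, against 8.30% of all windows. None of these matches is evidence of binding in this marrow.

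No probe set of the family passed the test between the crosses. Of the 13, 0 had an adjusted p under 0.05 in limma's moderated linear model fitted to all 45037 probe sets, against 12.3% of all probe sets (5.57% higher and 6.73% lower in AKR F1). At an unadjusted p under 0.05 there were 2, Ifi47 and Irgm2, both with lower means in AKR F1, against 27.3% of all, and at an adjusted p under 0.10 there was 1, Ifi47, against 18.8% of all. Differences are given on the log2 scale as the AKR F1 mean less the DBA F1 mean, so a negative one means a lower level in AKR F1. There were 8 negative and 5 positive ones. Their median was -0.07, against 0.03 over all probe sets, and the median absolute difference was 0.148, against 0.150. The 95% interval of each of the 13 differences stayed inside a 2-fold change in either direction, and for 9 of them inside 1.5-fold.

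**Figure D1:**
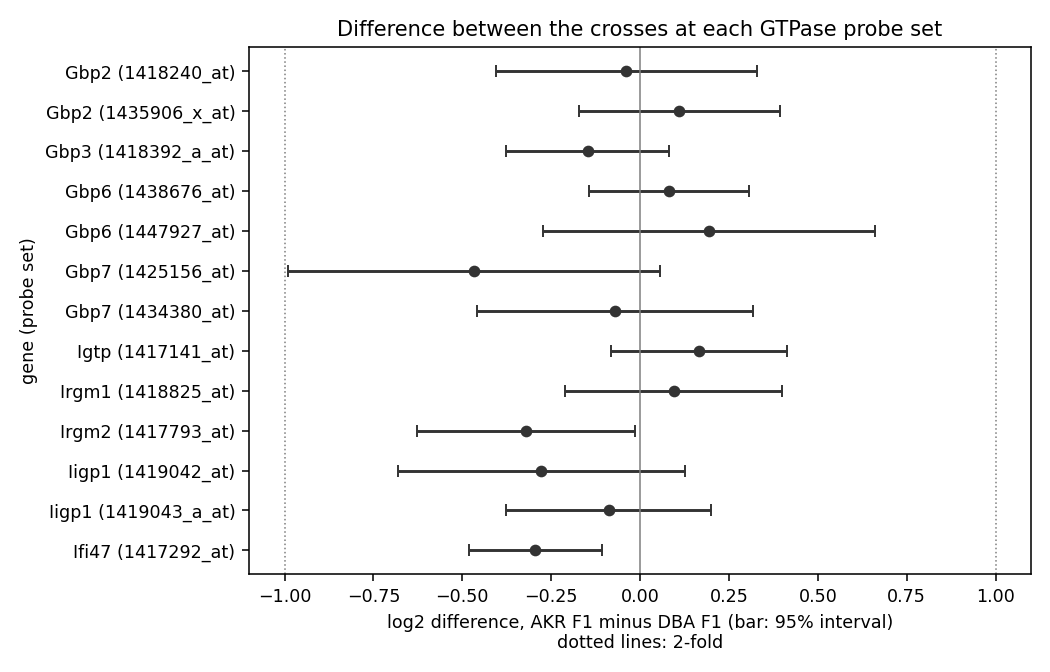
Log2 difference between AKR F1 and DBA F1 marrow (horizontal axis) at each of the 13 GTPase probe sets, with points for the estimate and bars for the 95% interval of limma's fit over 3 arrays a group. The points run from -0.47 (Gbp7, 1425156_at) to 0.19 (Gbp6, 1447927_at), no interval reaches the dotted lines at 2-fold, and those of Irgm2 and Ifi47 lie below 0.

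The effector genes included the member nearest to the threshold. Ifi47, which encodes the effector IRG also called Irgd, had 9.54, 9.52 and 9.51 in AKR F1 replicates 1 to 3, against 9.82, 9.78 and 9.86 in DBA F1 (probe set 1417292_at, log2 values). All AKR F1 arrays lay below all DBA F1 arrays, as happened in 1 of the 13 probe sets in either direction and in 33% of all probe sets. The means were 9.52 ± 0.02 and 9.82 ± 0.04 (SD, n = 3 each), a difference of -0.29 (SE 0.08, 95% interval -0.48 to -0.11), or 0.815 times the DBA F1 level. Its adjusted p in limma was 0.051, with 0.037 to 0.560 over 16 alternative settings. It passed when dim probe sets were left out (0.040), with array weights (0.037) and with 1 probe set per gene (0.042), fits in which 24.7%, 16.8% and 15.2% of all features passed, and in no fit that left out 1 array (0.084 to 0.153), fits in which 3.74% to 12.4% of all probe sets passed. The difference itself stayed between -0.37 and -0.27 under all 16.

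Iigp1 encodes the effector Irga6, which is among the first to load onto the Toxoplasma vacuole. Its brighter probe set, 1419043_a_at, had 7.43, 7.12 and 7.39 in AKR F1, against 7.58, 7.25 and 7.38 in DBA F1, and the groups overlapped. The difference was -0.09 (SE 0.13, adjusted p = 0.70 in limma). The dimmer one, 1419042_at, had 5.30, 5.36 and 5.63 in AKR F1, against 6.11, 5.48 and 5.53 in DBA F1. Here DBA F1 replicate 1 stood above the other 5 arrays, and the difference of -0.28 (SE 0.18, adjusted p = 0.36 in limma) was -0.08 without that array.

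**Figure D2:**
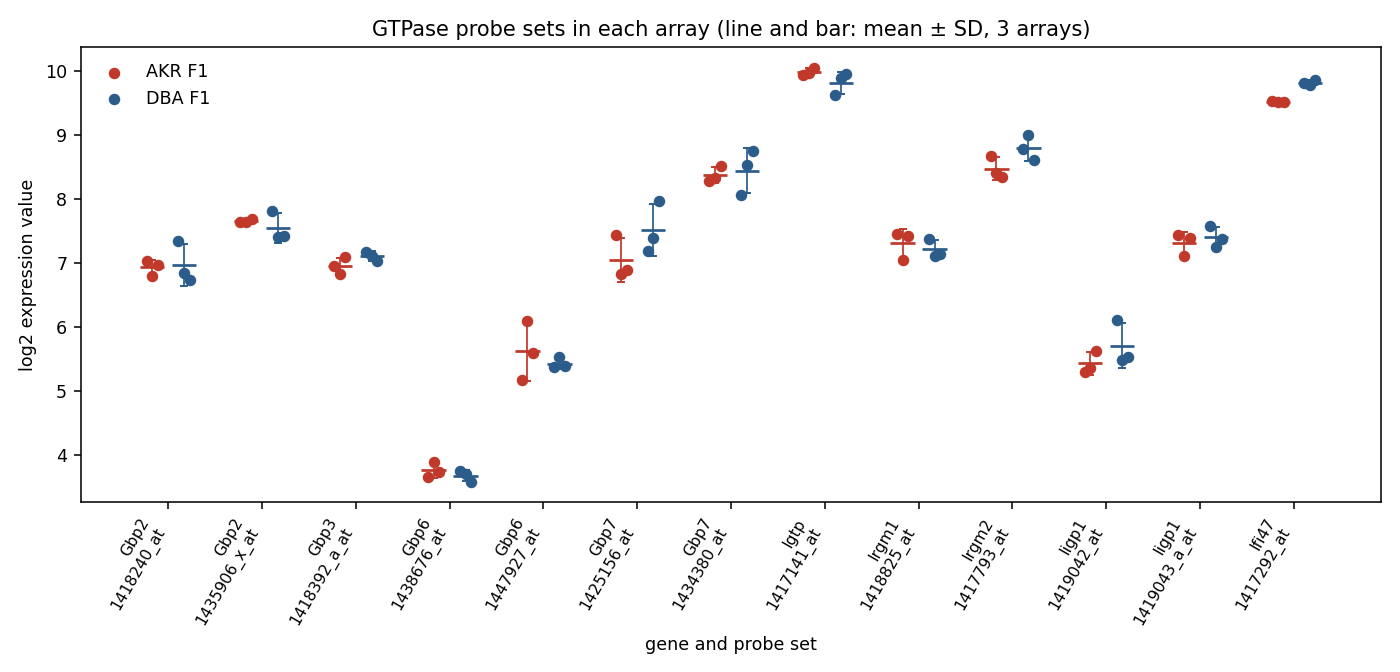
Log2 expression values (vertical axis) of the 13 GTPase probe sets in each of the 6 arrays, AKR F1 left and DBA F1 right within each probe set, in the order of replicates 1 to 3, with lines and bars for mean ± SD (n = 3). The points of the groups overlap everywhere except at Ifi47, where the AKR F1 arrays lie at 9.51 to 9.54 and the DBA F1 arrays at 9.78 to 9.86.

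The regulatory IRG genes pointed both ways, and none passed. Irgm2, whose product sits on Golgi membranes, had 8.68, 8.41 and 8.34 in AKR F1, against 8.78, 9.01 and 8.61 in DBA F1 (1417793_at). AKR F1 replicate 1 lay above DBA F1 replicate 3, so the groups overlapped. The difference was -0.32 (SE 0.13, 95% interval -0.63 to -0.02, adjusted p = 0.16 in limma), which is 0.800 times the DBA F1 level. Among the 16 settings it passed with array weights alone, at -0.45 (adjusted p = 0.040), and its adjusted p otherwise reached from 0.0997 to 0.919.

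Igtp, which encodes the regulator of the endoplasmic reticulum also known as Irgm3, had 9.94, 9.98 and 10.05 in AKR F1, against 9.63, 9.89 and 9.95 in DBA F1 (1417141_at). The groups overlapped only through AKR F1 replicate 1 and DBA F1 replicate 3. The difference was 0.16 (SE 0.11, 95% interval -0.08 to 0.41, adjusted p = 0.37 in limma), and without DBA F1 replicate 1, the lowest array, it was 0.07. Irgm1, the regulator required for normal blood stem cell function in infected mice, had 7.45, 7.05 and 7.42 in AKR F1, against 7.38, 7.11 and 7.14 in DBA F1 (1418825_at). The AKR F1 arrays thus spanned the DBA F1 arrays, and the means differed by 0.09 (SE 0.13), with adjusted p = 0.71 in limma. Igtp and Irgm2 are neighbours with like promoters and differed by 0.16 and -0.32. Whether these differ from each other was not tested.

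Among the GBP genes, Gbp2, whose product is drawn to parasite vacuoles, was read by a pair of probe sets. The brighter one, 1435906_x_at, had 7.65, 7.65 and 7.68 in AKR F1, against 7.82, 7.40 and 7.42 in DBA F1. The other, 1418240_at, had 7.03, 6.80 and 6.97 in AKR F1, against 7.34, 6.84 and 6.74 in DBA F1. In both, DBA F1 replicate 1 was the highest of all 6 arrays. The differences were 0.11 (SE 0.12) and -0.04 (SE 0.16), with adjusted p = 0.62 and 0.91 in limma. Without DBA F1 replicate 1 they became 0.25 and 0.15, with adjusted p = 0.13 and 0.46. The suffix x of the first marks probes that may also bind other transcripts, and GBP genes are close copies of each other, so it may read more than Gbp2.

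Gbp7, a GBP linked to assembly of the phagocyte oxidase, was also read by a pair of probe sets. At 1434380_at it had 8.28, 8.33 and 8.52 in AKR F1, against 8.06, 8.53 and 8.75 in DBA F1. At the dimmer 1425156_at it had 7.44, 6.82 and 6.89 in AKR F1, against 7.18, 7.39 and 7.97 in DBA F1. DBA F1 replicate 1 was the lowest and replicate 3 the highest of the DBA F1 arrays in both. The differences were -0.07 (SE 0.17, adjusted p = 0.83 in limma) and -0.47 (SE 0.23, 95% interval -0.99 to 0.05, adjusted p = 0.23 in limma). The second was the largest of the 13, at 0.723 times the DBA F1 level, and came with the widest interval. It was -0.24 without DBA F1 replicate 3.

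Gbp3 had 6.95, 6.83 and 7.09 in AKR F1, against 7.18, 7.11 and 7.03 in DBA F1 (1418392_a_at). The groups overlapped through AKR F1 replicate 3, and the difference was -0.15 (SE 0.10, adjusted p = 0.39 in limma). Gbp7, Gbp3 and Gbp2 lie close together on chromosome 3, and Gbp6 lies on chromosome 5. At its brighter probe set, 1447927_at, Gbp6 had 5.17, 6.09 and 5.59 in AKR F1, against 5.37, 5.52 and 5.39 in DBA F1. AKR F1 replicates 1 and 2 lay on opposite sides of the DBA F1 arrays, and the SD of 0.46 in AKR F1 was the largest of the family. The difference was 0.19 (SE 0.20, adjusted p = 0.60 in limma) and -0.04 without AKR F1 replicate 2. Its other probe set, 1438676_at, had 3.65, 3.89 and 3.73 in AKR F1, against 3.74, 3.70 and 3.58 in DBA F1, values near the lower quartile of the arrays (3.68 to 3.75). The other 12 had means above the median of all probe set means.

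Spread between arrays of a group varied among the probe sets. The SD over 3 arrays had a median of 0.129 in AKR F1 and 0.172 in DBA F1 over the 13 probe sets, against 0.107 and 0.134 over all probe sets. It reached from 0.015 (Ifi47) to 0.46 (Gbp6) in AKR F1 and from 0.037 (Ifi47) to 0.41 (Gbp7) in DBA F1. DBA F1 replicate 1 was the highest array of its group at 7 of the 13 probe sets, among them those of Gbp2, Gbp3, Irgm1 and Iigp1, and the lowest at 4, those of Gbp7 and Igtp and 1 of Gbp6.

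The genes whose array pattern was most like that of Igtp were Rhebl1, Ddit3, Gatad1, Nrg2 and Nek8, with Pearson correlations of 0.996, 0.993, 0.991, 0.987 and 0.986 over the 6 arrays. They are the 5 highest of 11540 genes that were read from their brightest probe set above the median level, so the values describe a selection and carry no test. All 5 were lowest in DBA F1 replicate 1, as Igtp was, and none passed the test between the crosses.

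Several measures of the tissue and the assay moved with the groups. The arrays held markers of marrow cells in both crosses, with mean log2 values of 13.72 to 13.78 in AKR F1 and 13.26 to 13.68 in DBA F1 for 7 neutrophil genes and of 11.24 to 11.33 against 10.93 to 11.09 for 6 erythroid genes. The means of 20 skeletal muscle genes were 6.51 to 7.84 in AKR F1 and 8.29 to 10.89 in DBA F1, highest in DBA F1 replicate 1. All 20 differences were negative, with a median of -2.47, and 11 of the 20 passed the test in limma. That count was 3, 5 and 0 without AKR F1 replicates 1 to 3 and 8, 15 and 2 without DBA F1 replicates 1 to 3. In the same fit, read from 1 probe set per gene, the brightest, 13.1% of all genes passed (7.9% higher and 5.23% lower). Past the test in limma were 2 of 6 erythroid genes (higher), 1 of 7 neutrophil genes (higher), 3 of 9 monocyte and macrophage genes (higher), 1 higher and 2 lower of 5 B cell genes, 2 of 5 T cell genes (higher), 1 of 5 NK cell genes (lower), 1 of 4 endothelial genes (higher), and none of 5 dendritic cell and 3 megakaryocyte genes (1 each at an unadjusted p under 0.05). The erythroid and neutrophil counts became 0 without any 1 of the AKR F1 arrays, the erythroid count was 1 without any 1 of the DBA F1 arrays, and the neutrophil count was 0 without DBA F1 replicate 2. The monocyte and macrophage count was 1, 1 and 0 without AKR F1 replicates 1 to 3 and 1 without DBA F1 replicate 2 or 3. The T cell count was 1 without any array other than DBA F1 replicate 1, and the B cell count was 2 without any 1 of the AKR F1 arrays or DBA F1 replicate 2. The endothelial count was 0 without AKR F1 replicate 2 or 3 or DBA F1 replicate 2 and 2 without AKR F1 replicate 1 or DBA F1 replicate 1. Of all probe sets, 8.7%, 4.19% and 3.74% passed without AKR F1 replicates 1 to 3, against 12.3% with all 6 arrays. Without DBA F1 replicates 1 to 3 the shares were 12.4%, 6.55% and 8.96%. A lower count in such a fit, here or below, need not be particular to the genes counted. In bulk marrow, fewer cells of a type and less RNA per cell cannot be told apart. The mean signal of the hybridization controls was 10.08 to 10.28 in AKR F1 and 10.62 to 11.03 in DBA F1. The mean 3' minus 5' difference of control probe sets was 1.25 to 2.03 in AKR F1 and 1.03 to 1.23 in DBA F1. That difference was taken over 6 pairs, those of mouse actin and Gapdh and of added bacterial control transcripts. It is thus not a measure of the marrow RNA alone. With the 3' to 5' difference, the hybridization controls or the muscle mean as a covariate, Ifi47 differed by -0.27, -0.37 and -0.28 (adjusted p = 0.44, 0.56 and 0.36 in limma) and Irgm2 by -0.12, -0.14 and -0.42 (adjusted p = 0.85, 0.92 and 0.39). Between 0.0222% and 0.357% of all probe sets passed in these 3 fits.

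**Figure D3:**
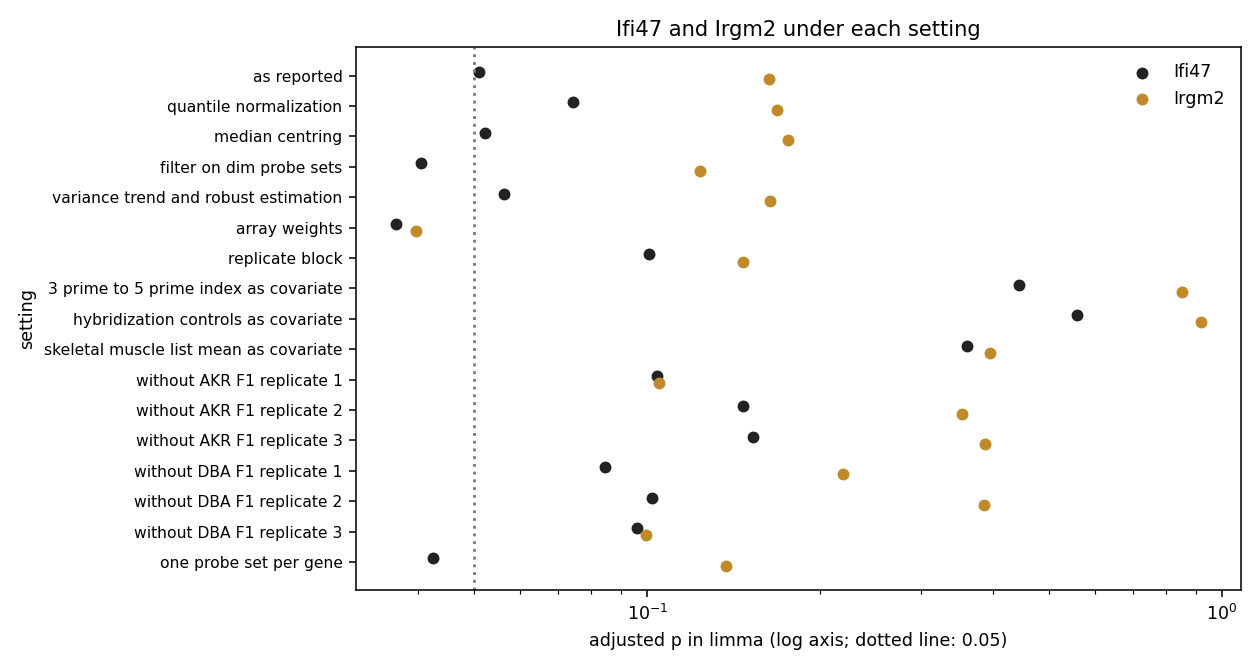
Adjusted p in limma (horizontal log axis, dotted line at 0.05) of Ifi47 and Irgm2 in the reported fit and under 16 alternative settings (vertical axis). Ifi47 lies left of the line with dim probe sets left out, array weights and 1 probe set per gene, and Irgm2 with array weights alone.

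Related GTPases and the pathway around the family were then read from 1 probe set per gene, the brightest, in the same fit, where 13.1% of 18193 genes passed (7.9% higher and 5.23% lower in AKR F1) 30.3% had an unadjusted p under 0.05, and the median difference was 0.06. Of 12 related GTPase probe sets 0 passed in limma, 2 were at an unadjusted p under 0.05 (against 30.3% of all genes), and their median was -0.03. Gvin1, a very large inducible GTPase whose probe set also carries the symbol Gm4070, had 8.97, 8.93 and 9.07 in AKR F1, against 9.36, 9.18 and 9.38 in DBA F1 (difference -0.31, adjusted p = 0.071), groups that did not overlap. Gbp8 had a mean of 7.14 ± 0.19 in AKR F1 and 7.48 ± 0.18 in DBA F1 (SD, n = 3 each, adjusted p = 0.14 in limma). Without DBA F1 replicate 1, 1 of the 12 was higher. A dimmer probe set of Atl3, another gene of this list, was looked up after the values were seen. It differed by -0.34 and passed (adjusted p = 0.041 in limma), and the remaining dimmer probe sets of Atl3 did not.

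Genes that act upstream of the GTPases were read next, against the same 13.1% of all genes. Of 9 interferon and inducing cytokine genes 1 passed the test, and it was lower in AKR F1. The other 8 differences were positive and did not pass. The gene was Il12a, a subunit of the interleukin that makes lymphocytes release interferon gamma. It had 6.74, 6.70 and 7.25 in AKR F1, against 7.72, 7.61 and 7.53 in DBA F1 (adjusted p = 0.021 in limma, difference -0.72, SE 0.15). It did not pass without AKR F1 replicate 1 or 2 or DBA F1 replicate 2, fits in which 8.7%, 4.19% and 6.55% of all probe sets passed. Of 9 genes of interferon receptors, their kinases and STAT factors 0 passed in limma (3 at an unadjusted p under 0.05, against 30.3% of all genes, and 1, lower, without DBA F1 replicate 3). Ifnar1, a chain of the type I receptor, differed by -0.25 and Jak2, a kinase of the interferon gamma receptor, by -0.24 (adjusted p = 0.10 and 0.11). These counts hold for the brightest probe set of each gene. Dimmer probe sets of Ifnar1, Jak2 and Jak1, looked up after the values were seen, differed by -1.12, -0.78 and -1.73 and passed (adjusted p = 0.0037, 0.019 and 0.0049 in limma). Another dimmer probe set of Jak1 differed by -0.08 (adjusted p = 0.77), and which probe set reads the transcript best was not tested. Usp18, a brake on type I signalling, was the 1 of 10 negative regulators past the test, 1.39-fold higher (adjusted p = 0.024 in limma). The call was lost without AKR F1 replicate 1 or 3 or DBA F1 replicate 1 or 3. In those fits 8.7%, 3.74%, 12.4% and 8.96% of all probe sets passed. Some dimmer probe sets of other negative regulators, also looked up afterwards, passed too. 1 each of Socs3, Ptpn2, Pias1 and Pias2 differed by -0.79, -0.48, -0.44 and -0.72 (adjusted p = 0.020, 0.024, 0.040 and 0.012 in limma) and 1 of Pias4 by 0.70 (adjusted p = 0.028), while the remaining dimmer probe sets of these 5 genes did not pass.

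Of 11 interferon regulatory factors and partners 2 passed the test, both higher in AKR F1. Irf7, the factor that amplifies type I interferon, had 8.07, 7.70 and 7.89 in AKR F1, against 6.98, 7.20 and 6.27 in DBA F1, and the groups did not overlap. The means differed by 1.07 (SE 0.22), with adjusted p = 0.021 in limma. Irf3, which switches on the first interferon genes, was 1.61-fold higher (adjusted p = 0.032). Neither passed without any 1 of the AKR F1 arrays, and 1 of the 2 passed without DBA F1 replicate 2. In those fits 8.7%, 4.19% and 3.74% (AKR F1 replicates 1 to 3) and 6.55% of all probe sets passed. Irf8, a factor of myeloid cells that acts on GBP and IRG promoters, differed by 0.05 at its brightest probe set (adjusted p = 0.92 in limma) and by -0.71 at a dimmer one (adjusted p = 0.021), likewise looked up afterwards.

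Genes that act beside the GTPases were read in the same way, against the same 13.1%. Of 13 genes of the ubiquitin-like conjugation system, which directs IRGs and GBPs to the right membranes, 0 passed in limma, with 6 at an unadjusted p under 0.05 (against 30.3% of all genes), and 2 were higher without DBA F1 replicate 1. Map1lc3a and Gabarap, genes of proteins conjugated by it, differed by 0.55 and 0.38 (adjusted p = 0.077 and 0.089). Another probe set of Map1lc3a, dimmer and looked up afterwards, passed with a difference of 0.82 (adjusted p = 0.048 in limma). Of 13 inflammasome and vacuole partners 2 passed the test, both lower in AKR F1. Aim2, a DNA sensor that acts after GBPs open bacteria, had 3.69, 3.40 and 3.46 in AKR F1, against 4.28, 4.02 and 4.20 in DBA F1 (adjusted p = 0.012 in limma), both near the dim end of the arrays. Casp1, the protease that such sensors activate, had 7.39, 7.18 and 7.26, against 7.86, 7.63 and 7.80 (adjusted p = 0.021 in limma). Both calls were lost without AKR F1 replicate 2 or 3, fits in which 4.19% and 3.74% of all probe sets passed. Tbk1, a kinase of innate immune signalling counted among these partners, differed by -0.32 at its brightest probe set (adjusted p = 0.069) and by -0.77 at a dimmer one looked up afterwards (adjusted p = 0.0088). A dimmer probe set of Traf6, also among these partners and looked up afterwards, passed at -0.32 (adjusted p = 0.040 in limma). The remaining probe sets of Traf6 did not.

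Other targets of interferon were read last. Of 17 interferon gamma targets outside the family 2 were higher and none lower (11.8%, against 13.1% of all genes), Wars, a transfer RNA ligase (1.76-fold, adjusted p = 0.0028 in limma), and Psmb9, an immunoproteasome subunit (1.49-fold, adjusted p = 0.047), and the median was 0.28. The difference of Wars was 0.81 at its brightest probe set. Dimmer probe sets of Wars, looked up afterwards, were higher by less, 0.39, 0.35 and 0.41 (adjusted p = 0.021, 0.072 and 0.024 in limma). The brightest and the one at 0.41 carry the suffix x, so they may also read other transcripts. The count of 2 became 1 without any 1 of the AKR F1 arrays or without DBA F1 replicate 2. It became 5 without DBA F1 replicate 1. Of all probe sets, 8.7%, 4.19% and 3.74% passed without AKR F1 replicates 1 to 3, and 6.55% and 12.4% without DBA F1 replicates 2 and 1. All 17 differences were positive, and 7 were at an unadjusted p under 0.05 in limma (against 30.3% of all genes). The share of positive differences over all genes was not counted, and their median was 0.06. Socs1 and Irf1, among the 17, are also counted in lists above. Of 19 type I targets 10 passed the test in limma, all of them higher in AKR F1 (52.6%). The median over the 19 was 0.47, and Irf7 and Usp18 are among the 10. The others were Oas3, Oas1a and Oas2 of the antiviral oligoadenylate synthetases (2.15-fold, 1.93-fold and 1.43-fold), Bst2 (1.67-fold), Ifit1 (1.58-fold), Dhx58 (1.70-fold), Rtp4 (1.58-fold) and Xaf1 (1.47-fold), with adjusted p from 0.0022 to 0.042. Another probe set of Xaf1 went the other way, by -1.66 (adjusted p = 0.0026 in limma). Of the 19 differences 15 were positive and 4 negative. The negative ones included Ifit2, at -0.30 (adjusted p = 0.090 in limma), with all AKR F1 arrays below all DBA F1 arrays. The count of 10 became 6 without AKR F1 replicate 1 and 5 without replicate 3, fits in which 8.7% and 3.74% of all probe sets passed. The difference between these targets and the GTPases was not tested as such. With any of the 3 covariates none of the 10 passed (adjusted p in limma from 0.072 for Oas3 to 0.97 for Xaf1). Between 0.0222% and 0.357% of all probe sets passed in these fits, so a count of 0 there says little about these targets.

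**Figure D4:**
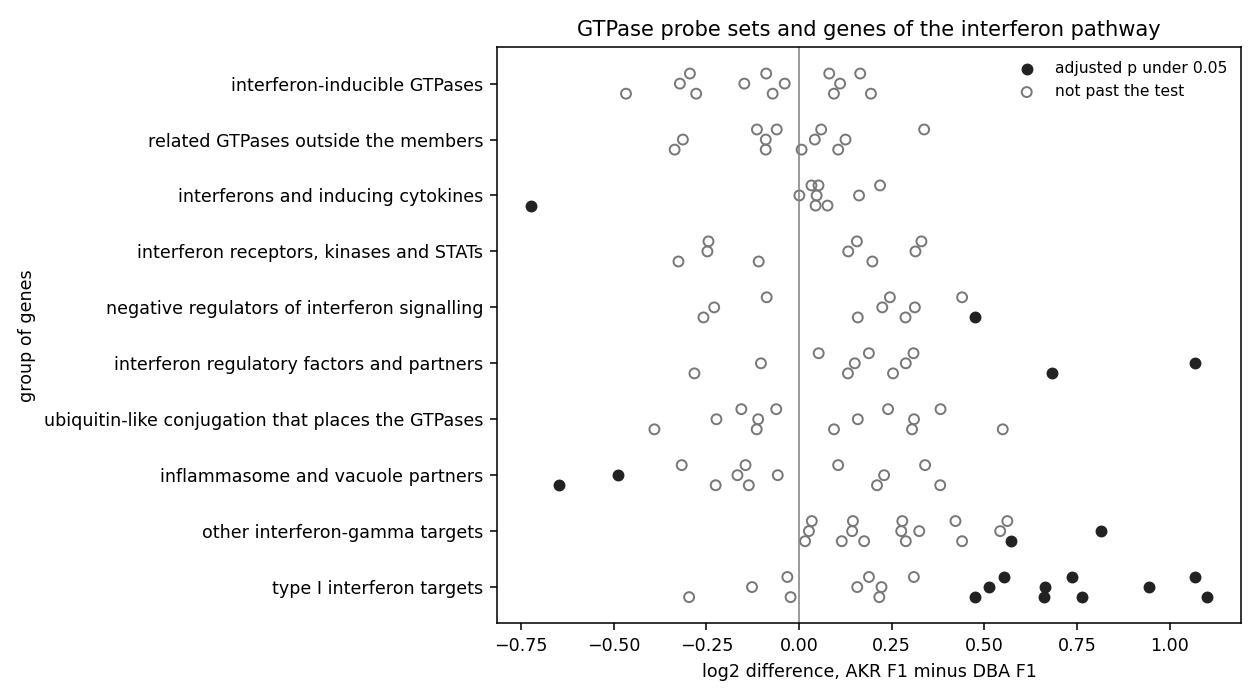
Log2 difference between AKR F1 and DBA F1 (horizontal axis) of the 13 GTPase probe sets, in the top row, and of the genes of 9 lists around them, 1 probe set per gene, with filled points past the test in limma and open points not past it. All 13 GTPase points are open, while 10 of the 19 type I interferon targets in the bottom row are filled and lie right of 0.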

How the data were processed

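Total RNA from snap-frozen marrow was extracted with Trizol, biotin-labelled and hybridised to Affymetrix arrays, per the labels' protocols. The deposited values are log2 expression values of 45101 probe sets, normalized between arrays before deposit (array medians of 5.14 to 5.19). RMA and MAS5 are named in the submitters' processing notes without a role, so the tool behind the table is not known here. Groups and replicate numbers came from the titles.

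The fit omitted 64 control probe sets. Symbols came from the platform's annotation. The members and gene lists were chosen with earlier results of these data known. The test was limma 3.58.1 in R 4.3.3 on all 6 arrays, two-sided, with Benjamini-Hochberg adjustment over all probe sets and a threshold of 0.05. It was also run on simulated data. The noise there was independent between probe sets, unlike these arrays, in which muscle and control signals moved with the groups. Named are all members, list genes past the test up to 8 by smallest p and otherwise up to 2 by smallest p, and the 5 genes most like Igtp. In the type I list all 10 are named. Irf8, Tbk1, Ifit2 and the dimmer probe sets of list genes were named after their values were seen, and marker genes are given as counts only. Irf3, Irf8 and others are read from 1 of several probe sets. Sequence differences between the strains within the probes were not examined, and a probe set's difference, or the lack of one, may not be that of its transcript. The number of arrays limits the precision.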

Additional observations from a re-analysis of the deposited data

How the results depend on the processing

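The count of GTPase probe sets past the test was 0 in the reported fit and stayed 0 with quantile normalization, median centring, a variance trend with robust estimation, a threshold of 0.01, each of the 3 covariates and each fit that left out 1 array (0 to 0). Of all probe sets, 12.9% passed with quantile normalization, 11.8% with median centring and 12% with the variance trend. Without 1 array 3.74% to 12.4% passed, and with a covariate 0.0222% to 0.357%, so a count of 0 there says little about the family. The GTPase count was 1 when dim probe sets were left out (against 24.7% of all features) and 1 with 1 probe set per gene (15.2%). It was 1 at a threshold of 0.10 (against 18.8% of all probe sets) and 2 with array weights (16.8%). With the replicate block the count was 0 (against 11.8% of all probe sets) and the adjusted p of Ifi47 in limma was 0.101. Whether the replicate numbers pair the samples is not known here. The deviations of same-numbered arrays from their group means correlated by 0.05, 0.02 and 0.08. AKR F1 replicates 1 and 3 correlated best with their own number and replicate 2 with another. Correlations this small cannot tell whether samples were handled together. Over 203 repeats of a single probe set's difference 17 changed sign, 11 with a covariate and 6 without 1 array. With the 3' to 5' difference as a covariate these were Gbp6 (-0.093 at 1438676_at and -0.40 at 1447927_at), Gbp7 at 1425156_at (0.12) and Iigp1 at 1419043_a_at (0.057). With the hybridization controls they were Gbp2 at 1435906_x_at (-0.22), Gbp7 at 1434380_at (0.32) and Irgm1 (-0.19), and with the muscle mean Gbp2 at 1418240_at (0.30), Igtp (-0.066), and Iigp1 (0.11 at 1419042_at and 0.041 at 1419043_a_at). Over the fits that left out 1 array Gbp2 at 1418240_at ran from -0.16 to 0.15, Gbp6 at 1447927_at from -0.043 to 0.42, Gbp7 at 1434380_at from -0.26 to 0.080 and Iigp1 at 1419043_a_at from -0.17 to 0.0099. The cause of these changes was not tested. The 3' to 5' difference, the hybridization controls and the muscle mean all differ between the groups. As covariates the 3' to 5' difference and the hybridization controls made the standard error larger, by a median factor of 1.63 and 2.42. With the muscle mean it was also larger at every GTPase probe set, for Ifi47 0.146 against 0.081 in the reported fit.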
